A study of Mus musculus with 30 samples.

Results

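The core circadian clock genes are the 10 genes Arntl, Clock, Npas2, Per1, Per2, Per3, Cry1, Cry2, Nr1d1 and Nr1d2, taken by symbol from a count table of 52550 genes. All 10 were among the 15587 genes that passed the filter on low counts. They were followed in total RNA of mouse cardiac myocytes, in 30 libraries that fall into 6 groups of 5. The groups were Myh6-Cre:DspW/F mice, called heterozygotes here, and wild-type mice, each at an age of 3 months, at an age of 6 months, and at that later age after endurance treadmill exercise. Groups without exercise are labelled as having regular activity. The series title describes the model as haplo-insufficient for desmoplakin, the desmosome protein encoded by Dsp, and the Myh6 promoter puts Cre in heart muscle cells. The sources used here do not say whether wild-type mice carry Cre, whether each library is a separate mouse, or at what hour hearts were collected, and p-values therefore measure the spread between libraries, which may be technical. The wording on exercise can be read as 3 months of training or as collection 3 months after it. Libraries are called by the replicate number in their titles.

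The mammalian clock is a transcriptional feedback loop. ARNTL, also known as BMAL1, pairs with CLOCK or NPAS2 and activates genes that carry E-boxes, among them the Per, Cry and Nr1d genes. PER and CRY proteins then repress that activation, while NR1D1 and NR1D2, also known as REV-ERBs, repress Arntl, and ROR proteins activate it, through the same ROR elements. In most mouse tissues, the heart included, Arntl RNA is therefore high when Per2 and Per3 RNA are low, and Nr1d1 RNA peaks earlier in the day than Per2 RNA. A library of a whole preparation holds 1 time point of this cycle, so the levels of these genes relative to each other can reflect the hour of collection as well as any difference between groups.

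Promoter sequences that carry E-boxes, D-boxes or ROR elements are given first, and the results below do not group members by these elements. RefSeq windows of 300 bases (build GRCm38.p6, 250 bases before and 50 after a start site) were matched by symbol for 9 of the 10 members, with 13 windows in all, and Per2 had no entry. Motifs were searched on both strands and are in capitals. The canonical E-box was searched as CACGTG. The E-prime box differs from it in the last base and was searched as CACGTT, which appears as its reverse complement where it lies on the strand opposite to the gene. The D-box was searched as TTANNTAA. The ROR element was searched as GGTCA behind 5 bases that have A at the first and T at the fourth position. No match of these motifs in the windows shown overlapped another. The sequences run 5′ to 3′ on the strand of the gene.
Arntl, second window, chr7:113207261-113207560, plus strand: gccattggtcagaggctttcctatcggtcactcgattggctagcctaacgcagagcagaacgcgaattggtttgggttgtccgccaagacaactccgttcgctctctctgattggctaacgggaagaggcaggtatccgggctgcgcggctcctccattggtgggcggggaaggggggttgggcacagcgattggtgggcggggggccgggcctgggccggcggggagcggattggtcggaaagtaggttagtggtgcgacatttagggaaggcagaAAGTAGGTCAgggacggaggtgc
Per1, first window, chr11:69098699-69098998, plus strand: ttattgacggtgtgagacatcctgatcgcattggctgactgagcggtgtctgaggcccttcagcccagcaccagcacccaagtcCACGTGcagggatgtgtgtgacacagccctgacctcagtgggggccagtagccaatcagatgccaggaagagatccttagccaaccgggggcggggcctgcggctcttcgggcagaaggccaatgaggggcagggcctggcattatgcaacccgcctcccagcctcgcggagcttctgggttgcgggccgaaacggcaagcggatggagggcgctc
Per3, chr4:151044616-151044915, minus strand: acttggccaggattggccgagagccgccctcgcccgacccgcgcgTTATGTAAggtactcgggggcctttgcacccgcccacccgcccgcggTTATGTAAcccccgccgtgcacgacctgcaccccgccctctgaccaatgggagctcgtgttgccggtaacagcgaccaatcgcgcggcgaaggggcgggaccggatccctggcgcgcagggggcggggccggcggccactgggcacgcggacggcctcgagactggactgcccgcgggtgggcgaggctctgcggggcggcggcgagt
Cry1, chr10:85185005-85185304, minus strand: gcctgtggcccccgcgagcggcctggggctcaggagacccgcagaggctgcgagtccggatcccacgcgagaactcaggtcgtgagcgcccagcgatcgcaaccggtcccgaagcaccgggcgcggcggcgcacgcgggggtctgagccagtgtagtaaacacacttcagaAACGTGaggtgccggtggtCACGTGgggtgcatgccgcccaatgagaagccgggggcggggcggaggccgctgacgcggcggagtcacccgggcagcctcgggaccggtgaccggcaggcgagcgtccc
Nr1d1, chr11:98775328-98775627, minus strand: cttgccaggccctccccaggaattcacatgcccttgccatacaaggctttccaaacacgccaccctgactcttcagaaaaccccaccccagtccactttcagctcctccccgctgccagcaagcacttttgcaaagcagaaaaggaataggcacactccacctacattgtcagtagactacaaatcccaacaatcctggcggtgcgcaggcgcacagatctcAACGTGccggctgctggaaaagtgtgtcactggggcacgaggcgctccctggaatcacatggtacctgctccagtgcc
The second Arntl window held a ROR element whose first base lies 27 bases after the start site. The first Per1 window held a canonical E-box 166 bases before the start, the Per3 window held 2 D-boxes 205 and 158 bases before it, and the Cry1 window held an E-box at 60 and an E-prime box at 79 bases before it. E-prime boxes lay 28 bases before the Nr1d1 start and 166 bases before the Cry2 start, and the windows of Clock, Npas2 and Nr1d2 held none of these 4 motifs. Of 32851 RefSeq promoter windows of mouse, 7.15% held the canonical E-box, 4.68% the E-prime box, 6% the D-box and 2.46% the ROR element, so a match is a description of the sequence and not of binding.

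The genes lie apart in the genome (GENCODE M21 on GRCm38, the mm10 assembly). Arntl is at chr7:113207465-113314126 on the plus strand, Clock at chr5:76209868-76304792 on the minus strand, and Npas2 at chr1:39193731-39363236 on the plus strand. Per1 is at chr11:69095217-69109960 on the plus strand, Per2 at chr1:91415982-91459324 and Per3 at chr4:151003652-151044665, both on the minus strand. Cry1 is at chr10:85131700-85185064, Cry2 at chr2:92403646-92434043, Nr1d1 at chr11:98767932-98775333 and Nr1d2 at chr14:18204054-18239127, all on the minus strand. Exons of Nr1d1 overlap those of Thra on the opposite strand over 263 bases, or 8.547% of the exon length of Nr1d1. Since the strand setting of the counting is not given in the sources used here, some reads of that overlap could belong to either gene. Thra ranged from 56.3 to 134 CPM and was not called in any comparison of 2 groups (lowest adjusted p = 0.0888, edgeR's quasi-likelihood test). The overlapping RNAs beside Cry2 (D930015M05Rik) and Arntl (Gm45355) had at most 16 and 2 counts in a library.

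Facts of the whole data set that touch these genes are as follows. Total counts were 11.23 to 23.37 (in units of 10⁶ counts) per library at 3 months, 17.09 to 23.71 in the older regular-activity set and 12.81 to 20.63 in the exercised set. Mitochondrially encoded RNA took 8.9% to 15.4%, 11.7% to 26.7% and 20.8% to 46.9% of the counts in these 3 sets, and 3, 11 to 18 and 0 spike-in entries had a value. Age and exercise therefore cannot be told apart from other differences between these 3 sets, and the sample titles name no batch. Dsp averaged 765 ± 213 CPM in heterozygotes and 1080 ± 295 CPM in wild type at 3 months, 626 ± 41.1 and 784 ± 173 CPM in the older regular-activity groups, and 848 ± 90.5 and 1560 ± 428 CPM in the exercised groups (SD, n = 5 each). Dsp was called lower only in the exercised heterozygotes against exercised wild type (log2 fold change -0.88, SE 0.193, adjusted p = 0.0287), and its adjusted p was 0.312 at 3 months and 0.657 in the older regular-activity groups. The library labelled heterozygote 3 at 3 months had 1130 CPM of Dsp, within the wild-type range. Heterozygote maxima of 680 CPM (older regular-activity set) and 939 CPM (exercised set) also lay above the wild-type minima of 636 and 928 CPM. The 12 ventricular myocyte markers summed to 79000 to 125000 CPM per library and the 8 fibroblast markers to 88.8 to 729 CPM, and none of these markers was at 0 in all libraries. In 3 wild-type libraries (4 at 3 months, 2 and 5 of the older regular-activity group) both Xist (66.8, 129 and 135 CPM) and the Y-linked gene Ddx3y (2.27, 0.995 and 1.31 CPM) were found, where Ddx3y was at most 0.0817 CPM in the other libraries with high Xist. In libraries with high Ddx3y, Xist was at most 1.25 CPM. In bulk RNA, fewer cells of a type and less RNA per cell cannot be told apart.

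Per kilobase of exon, the repressors Nr1d1 and Nr1d2 had the highest levels of the 10 genes, and the activators Arntl and Npas2 the lowest. Over the 30 libraries the mean was 25.9 ± 8.71 CPM per kb for Nr1d1 and 23.7 ± 6.35 CPM per kb for Nr1d2 (SD, n = 30 libraries of 6 groups). The order of this pair differed by set, since Nr1d1 had 30.7 CPM per kb in heterozygotes and 35.3 in wild type at 3 months, where Nr1d2 had 18.8 in both, but 18.7 in exercised heterozygotes and 17.8 in exercised wild type, where Nr1d2 had 26.5 and 30.2 CPM per kb. Per1 followed at 8.37 ± 2.59 CPM per kb, then Clock at 5.13 ± 0.78, Per3 at 4.61 ± 1.8, Cry2 at 4.42 ± 0.826, Per2 at 3.19 ± 1.69 and Cry1 at 2.24 ± 0.659 CPM per kb. Neighbours in this part of the order, from Clock to Cry1, lay within 1 SD of each other over the 30 libraries. Arntl had 0.899 ± 0.672 CPM per kb and Npas2 had 0.606 ± 0.236 CPM per kb, and their order also differed by set. At 3 months Arntl had 1.28 CPM per kb in heterozygotes and 1.56 in wild type, where Npas2 had 0.732 and 0.658, whereas in exercised heterozygotes Arntl had 0.237 and Npas2 0.657 CPM per kb. Against Clock, its partner in the activating dimer, Arntl was the scarcer RNA in each of the 6 group means.

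**Figure D1:**
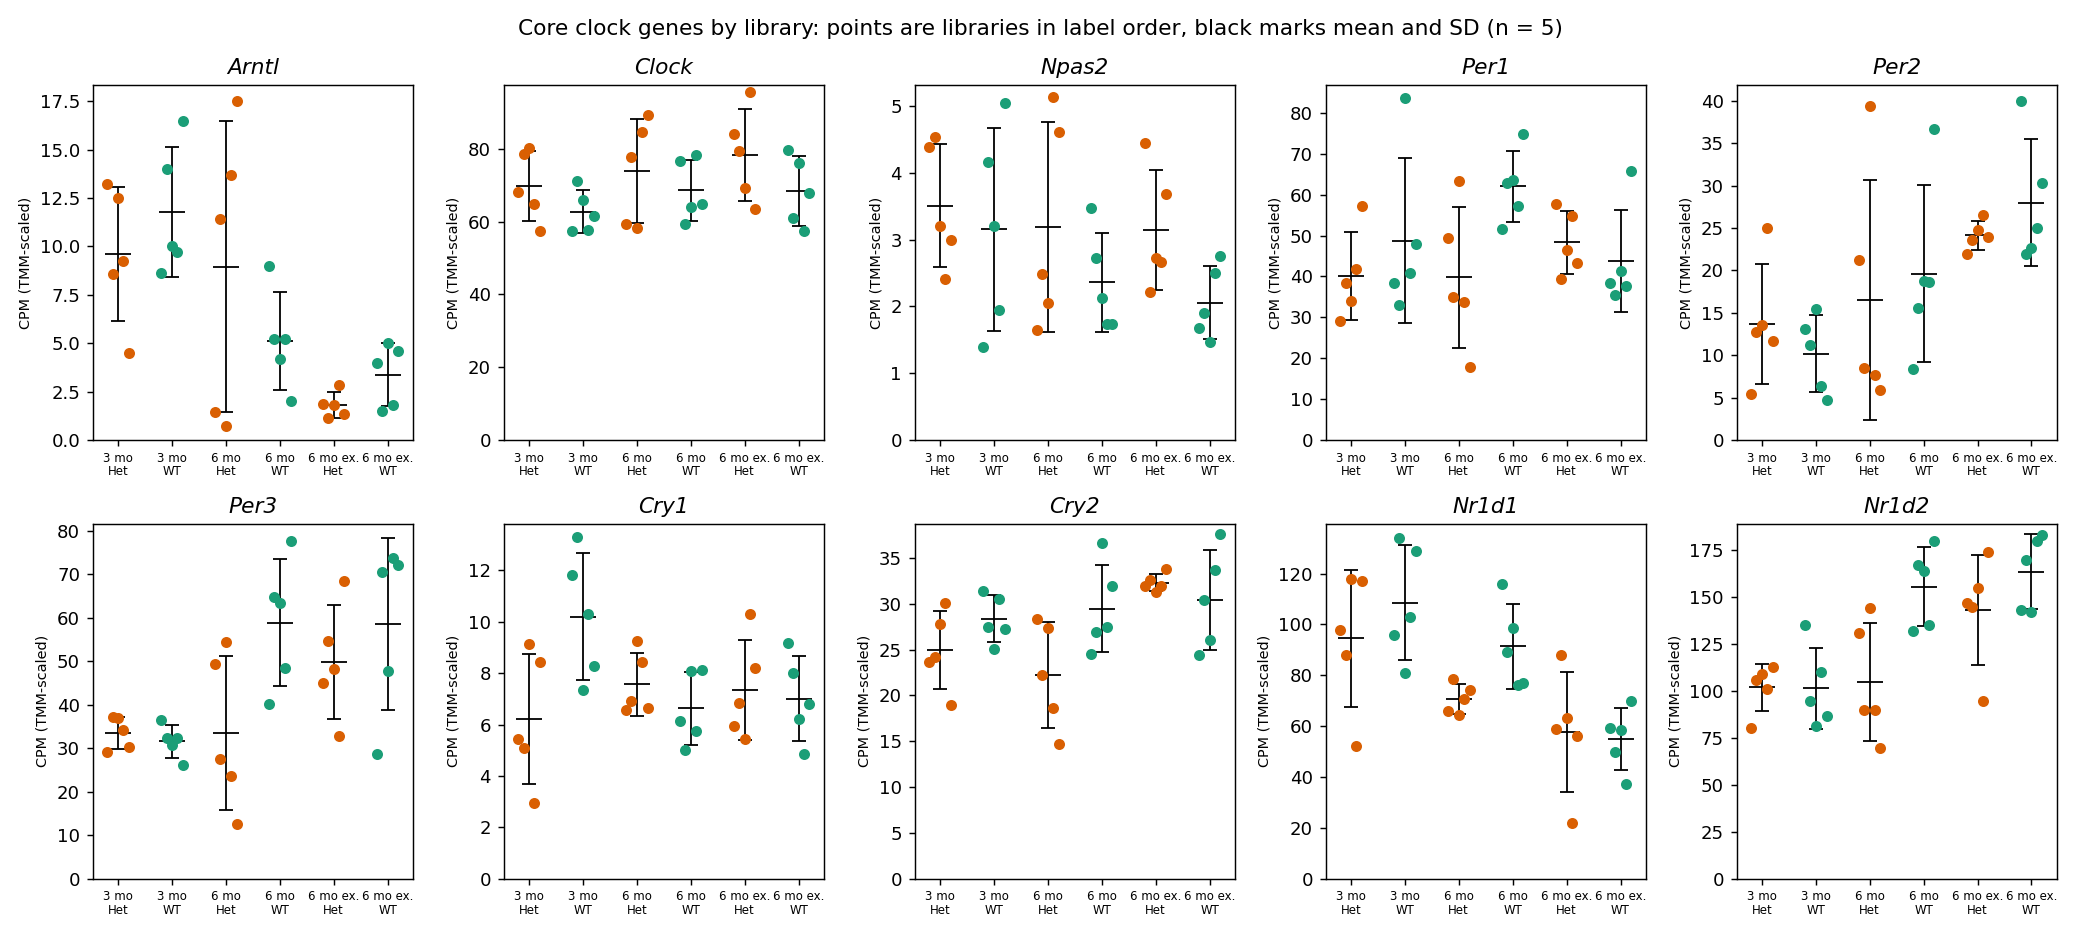
Level of each clock gene (TMM-scaled CPM, vertical axes from 0) in every library, by age, exercise and genotype, with heterozygotes in orange left of wild type in green and black marks for the mean and SD of 5 libraries. Arntl spans 0.721 to 17.5 CPM among regular-activity heterozygotes of 6 months, whereas the exercised heterozygotes lie between 1.11 and 2.84 CPM.

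Arntl was also the member with the highest within-group SD over the 6 groups together. Its level was 13.2, 8.59, 12.5, 9.22 and 4.5 CPM in heterozygotes 1 to 5 at 3 months, against 8.63, 14, 10, 9.71 and 16.5 CPM in wild type 1 to 5. At 6 months with regular activity it was 1.44, 11.4, 0.721, 13.7 and 17.5 CPM in heterozygotes 1 to 5, against 9, 5.22, 4.16, 5.19 and 2.03 CPM in wild type 1 to 5. With exercise it was 1.84, 1.11, 1.82, 2.84 and 1.33 CPM in heterozygotes 1 to 5, against 3.96, 1.48, 5.02, 1.81 and 4.58 CPM in wild type 1 to 5. Heterozygotes 1 and 3 at 6 months thus lay below every regular-activity wild-type library of that age, and heterozygotes 2, 4 and 5 lay above all of them. The raw counts behind these values run from 13 in heterozygote 3 to 360 in heterozygote 4 of that group. The within-group SD of Arntl was 1 on the log2 scale, above that of 98.7% of the 11189 genes that averaged 1 log2 CPM or more, whose median SD was 0.26. By group, its SD was 2.025 in regular-activity heterozygotes of 6 months and 0.391 to 0.78 in the other groups. In both groups of 3 months, regular-activity wild type of 6 months and exercised heterozygotes, another member had a higher SD than Arntl.

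The other activators varied less over the 6 groups together. Clock, the DNA-binding partner of ARNTL, ranged from 57.4 to 95.7 CPM over all 30 libraries, a span of 1.67-fold, and its within-group SD of 0.21 stood at the 30.5th percentile. Npas2, which can take the place of CLOCK in the dimer, was low throughout at 1.39 to 5.13 CPM, with an SD of 0.52 at the 86.4th percentile. Neither these percentiles nor that of Arntl were matched for abundance. Npas2 had 20 to 135 counts in a library, and the part of counting noise in its SD was not tested.

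Of the repressors, Per2 had the highest within-group SD over the 6 groups together. Its level was 21.2, 8.54, 39.4, 7.61 and 5.84 CPM in heterozygotes 1 to 5 at 6 months with regular activity, against 8.35, 15.6, 18.7, 18.6 and 36.7 CPM in wild type 1 to 5. The highest heterozygote libraries in Per2 were 3 and 1, which had the least Arntl, and the lowest was 5, which had the most. Per3 had 49.4, 27.5, 54.4, 23.6 and 12.6 CPM in the same heterozygotes 1 to 5, against 40.2, 64.8, 63.4, 48.5 and 77.6 CPM in wild type 1 to 5. Heterozygotes 1 and 3 lay within the wild-type range of Per3 and heterozygotes 2, 4 and 5 below it. Nr1d2 showed the same division, with 131, 89.9, 144, 90.1 and 69.4 CPM in heterozygotes 1 to 5, against 132, 167, 164, 135 and 180 CPM in wild type 1 to 5, except that heterozygote 1 fell just below the lowest wild-type library. The within-group SD on the log2 scale was 0.73 for Per2, 0.49 for Per3, 0.43 for Per1, 0.42 for Nr1d1, 0.39 for Cry1, 0.29 for Nr1d2 and 0.24 for Cry2. In the exercised heterozygotes, Per2 (21.9 to 26.5 CPM) and Cry2 (31.3 to 33.8 CPM) were nearly level across the 5 libraries.

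Because the hour of collection is not given, the relation of each gene to Arntl among libraries of the same group was tested across all genes. Per3 and Nr1d2 were lower, and Clock higher, in libraries with more Arntl, and these 3 of the 9 other members were called. The slope on the within-group deviation of Arntl, in log2 units per log2 unit of Arntl, was -0.36 for Per3 (SE 0.0584, adjusted p = 0.00307), -0.21 for Nr1d2 (SE 0.0385, adjusted p = 0.0129) and 0.16 for Clock (SE 0.032, adjusted p = 0.0497; edgeR's quasi-likelihood test with Benjamini-Hochberg adjustment over 15586 genes, n = 30). Genes called in either direction made up 0.0513% of those tested, which is 8 genes, 3 of them with Arntl and 5 against it. Per2 had a steeper slope of -0.50 (SE 0.105) and ranked 12th by p, but its adjusted p of 0.0762 missed the threshold. It was called with limma-voom (adjusted p = 0.000992) and with the DESeq2 Wald test (adjusted p = 0.000225). Slopes of the other members did not pass either, at 0.30 for Npas2, -0.22 for Per1, -0.13 for Cry2, -0.05 for Cry1 and 0.06 for Nr1d1, each with an adjusted p of 1. The call of Clock was lost in 26 of 30 fits that left out 1 library, that of Nr1d2 in 3 of 30, and that of Per3 in none of 30 (adjusted p 0.000239 to 0.0464).

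**Figure D2:**
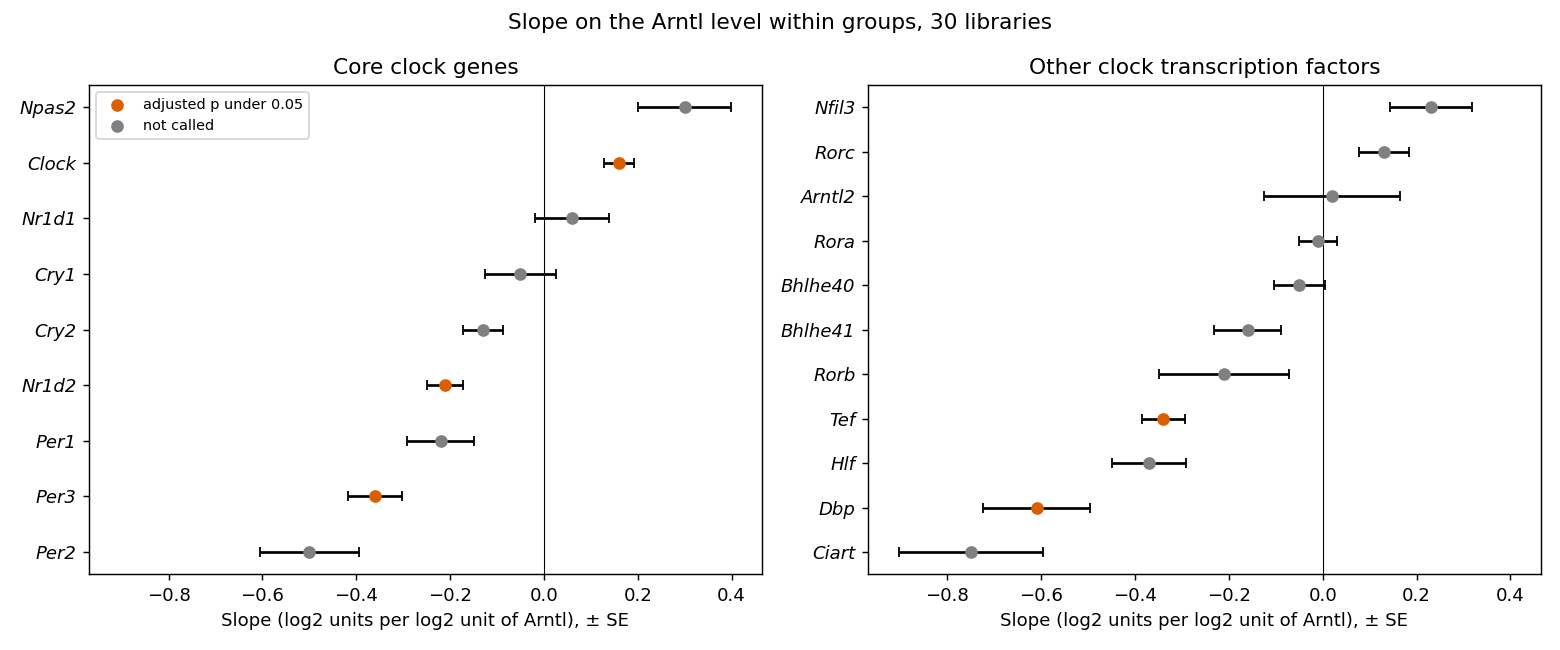
Slope of each gene on the Arntl level within groups (horizontal axis, log2 units per log2 unit of Arntl, with SE) for the other 9 core genes and for 11 other clock transcription factors, over 30 libraries. Orange marks an adjusted p under 0.05: Clock, Nr1d2 and Per3 among the core genes, and Tef and Dbp among the others.

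The genes most like and most opposite to Arntl included several further parts of the clock. Likeness was measured by Pearson's r of within-group deviations over 30 libraries, among 10493 genes. The highest r belonged to Rcan1, a regulator of calcineurin (r 0.78, slope 0.32), Clock (r 0.75), the metalloprotease gene Adam19 (r 0.73, slope 0.44), the stress cytokine gene Gdf15 (r 0.69, slope 0.69) and Adprhl1 (r 0.68, slope 0.18). Of these, Rcan1 (adjusted p = 0.00283) and Adam19 (adjusted p = 0.0497) were called beside Clock, whereas Gdf15 (adjusted p = 0.0518) and Adprhl1 (adjusted p = 0.103) were not. The lowest r belonged to Tef (r -0.82, slope -0.34, adjusted p = 0.000262), Wee1 (r -0.78, slope -0.30, adjusted p = 0.00307), Per3 (r -0.77), Dbp (r -0.76, slope -0.61, adjusted p = 0.0497) and Nr1d2 (r -0.76), all 5 called. TEF and DBP are D-box binding activators, and Wee1 encodes a cell cycle kinase whose gene is a known clock target.

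Dbp and Rcan1, chosen above by r over all 30 libraries, are shown here in the regular-activity libraries of 6 months. These libraries entered that choice, so their values illustrate it and are no separate support. Heterozygote 1, with little Arntl, had more Rcan1 than any wild-type library. Dbp was 151, 48.6, 136, 27.8 and 12.8 CPM in heterozygotes 1 to 5, against 85.3, 113, 193, 203 and 248 CPM in wild type 1 to 5. Rcan1 was 122, 161, 71.2, 161 and 285 CPM in heterozygotes 1 to 5, against 107, 90.9, 85.1, 107 and 61 CPM in wild type 1 to 5. Heterozygote 5, with the most Arntl, had the least Dbp and the most Rcan1 of the 10 libraries, and wild type 5, with the least Arntl of its group, had the most Dbp and the least Rcan1.

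The relation rested mostly on the 6-month regular-activity set, where Arntl deviated from its group mean by -2.63 to 1.78 on the log2 scale. In that set alone, the slope was -0.62 for Per2 (SE 0.0546, adjusted p = 0.000196), -0.38 for Per3 (SE 0.0552, adjusted p = 0.0276) and -0.21 for Nr1d2 (SE 0.0344, adjusted p = 0.043), with 0.0623% of 14449 genes called. Per1 had a slope of -0.28 there (adjusted p = 0.0536). At 3 months, where Arntl deviated by -0.98 to 0.55, no gene was called, and the slopes were -0.52 for Per2 (SE 0.509), -0.08 for Per3 (SE 0.143) and -0.30 for Nr1d2 (SE 0.136). In the exercised set, where Arntl deviated by -0.98 to 0.70, 1 gene was called (0.00731% of 13672) and no member, with slopes of 0.21 for Per2 (SE 0.134), -0.42 for Per3 (SE 0.19) and -0.21 for Nr1d2 (SE 0.121). The difference between sets was not tested. Without heterozygotes 1 and 3 at 6 months, in a fit added after seeing the data, no gene was called over the remaining 28 libraries, and the slopes were -0.36 for Per2, -0.37 for Per3 and -0.24 for Nr1d2. Leaving out heterozygote 1, 3 or 5 of that group left Per3 as the only member called.

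Correlations with Arntl were also taken within single sets. Over the 10 regular-activity libraries at 6 months, Per2 went against Arntl with Pearson's r of -0.94 (permutation p = 9e-05, adjusted p = 9e-04 over 20 relations) and Spearman's rho of -0.98 (permutation p = 1e-05, the smallest that 100000 permutations can give, adjusted p = 2e-04). Without the 2 libraries farthest from the median of Arntl, heterozygotes 1 and 3, r was -0.99. Per3 had r of -0.73 (permutation p = 0.0153, adjusted p = 0.0614) and rho of -0.76 (permutation p = 0.0154, adjusted p = 0.0706) there, Per1 had r of -0.71 (permutation p = 0.0187, adjusted p = 0.0624) and rho of -0.75 (permutation p = 0.0177, adjusted p = 0.0706), and Nr1d2 had r of -0.69 (permutation p = 0.028, adjusted p = 0.08) and rho of -0.65 (permutation p = 0.0501, adjusted p = 0.125). These 3 did not pass, and without heterozygotes 1 and 3 their r was -0.93, -0.89 and -0.92. Nr1d1 had r of 0.36 (permutation p = 0.3, adjusted p = 0.42) and rho of 0.27 (permutation p = 0.45, adjusted p = 0.473), and without those 2 libraries its r turned to -0.18. Each genotype alone holds 5 libraries, too few for a correlation of its own, so these values pool both genotypes. Without heterozygotes 1 and 3, all heterozygotes left had more Arntl, and less Per1, Per3 and Nr1d2, than every wild-type library. The r values of these 3 genes without those libraries therefore cannot be told apart from a difference between the genotypes.

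**Figure D3:**
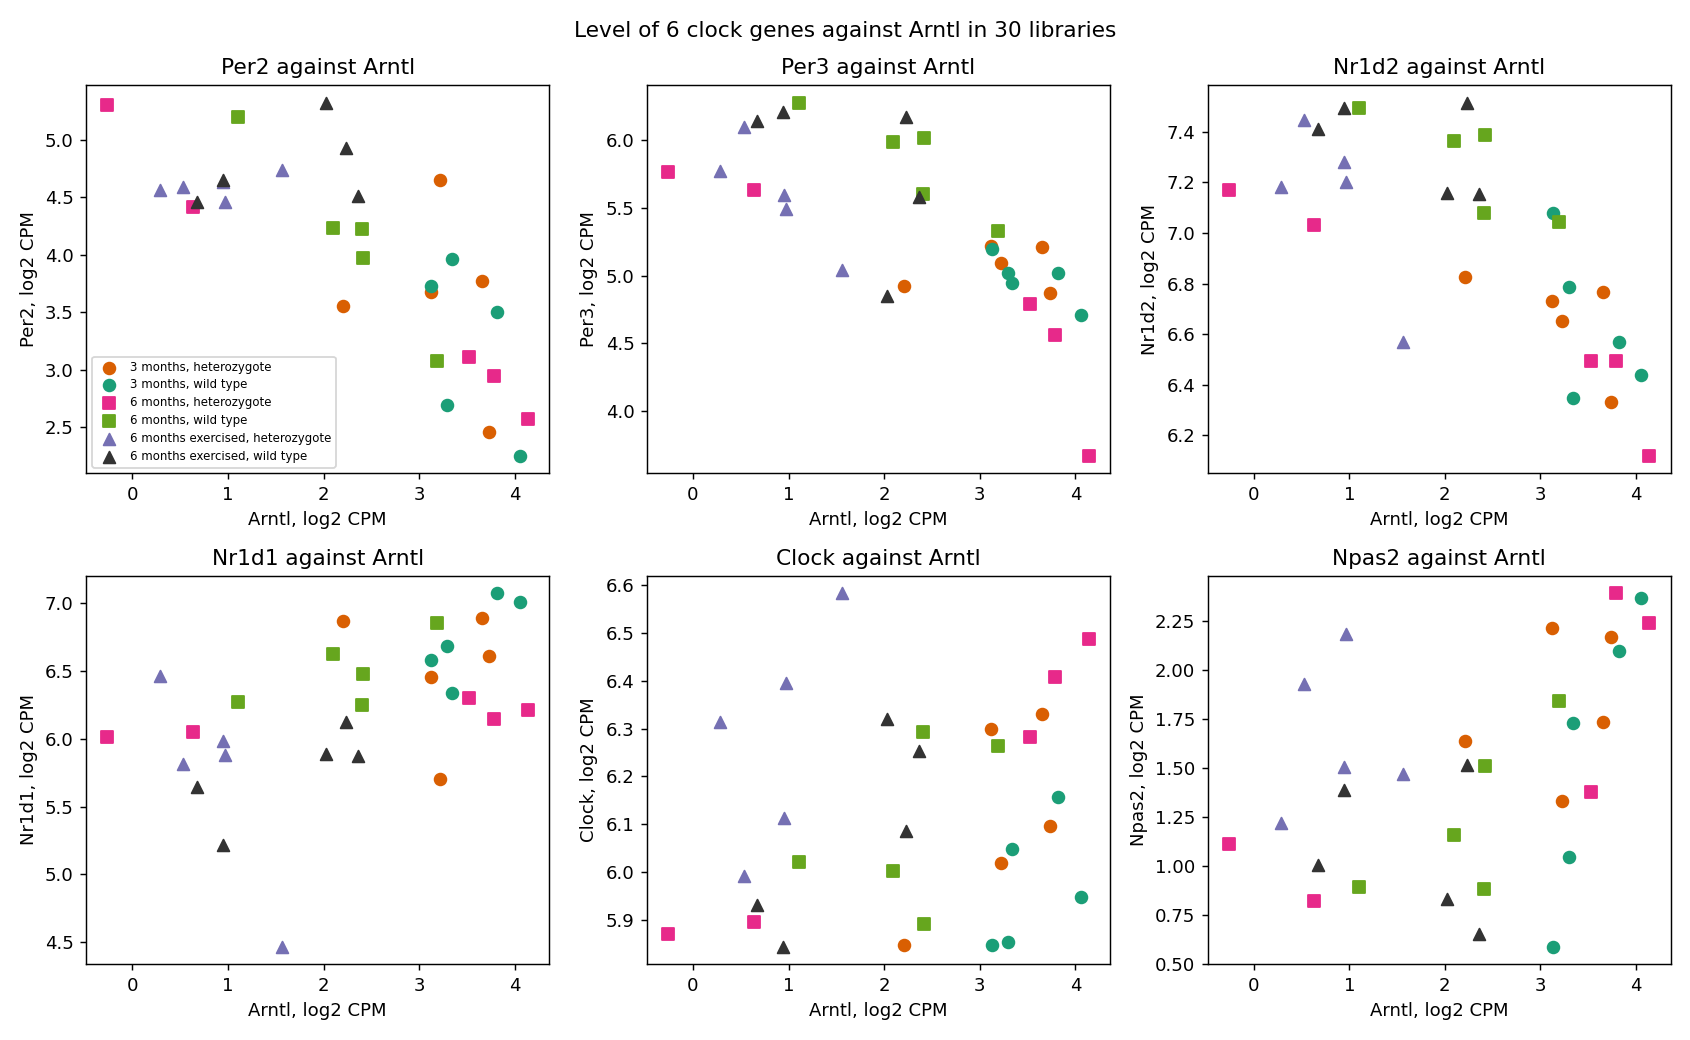
Level of 6 clock genes against Arntl (both axes log2 CPM), 1 point per library, with circles for 3 months, squares for 6 months with regular activity and triangles for the exercised set. The squares of Per2 fall steadily with Arntl (r -0.94, n = 10), while the triangles do not (r 0.54, n = 10, adjusted p = 0.201, permutation test).

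In the other sets no correlation passed the adjustment. The strongest at 3 months was that of Nr1d2 (r -0.54, permutation p = 0.101, adjusted p = 0.201, and rho -0.68, permutation p = 0.0346, adjusted p = 0.0989). In the exercised set Per2 had the opposite sign (r 0.54, permutation p = 0.0923, adjusted p = 0.201, and rho 0.38, permutation p = 0.277, adjusted p = 0.346). Without the 2 libraries farthest from the median of Arntl there, exercised wild type 3 and 5, r was 0.82 for Per2, and -0.82 for Per3 in place of -0.38. On deviations from the group means over all 30 libraries, permuted within groups, r was -0.77 for Per3 (permutation p = 0.00019, adjusted p = 0.00127), -0.76 for Nr1d2 (permutation p = 6e-05, adjusted p = 9e-04) and -0.68 for Per2 (permutation p = 0.00308, adjusted p = 0.0154), with rho of -0.73, -0.71 and -0.51, of which that of Per2 missed the threshold (adjusted p = 0.073). Without heterozygotes 1 and 3 at 6 months these r values were -0.68, -0.68 and -0.54. Per1 (r -0.53, permutation p = 0.0346, adjusted p = 0.0865) and Nr1d1 (r 0.11, permutation p = 0.377, adjusted p = 0.471) did not pass.

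Each library was also described by the level of Arntl minus the mean of Per1, Per2, Per3, Nr1d1 and Nr1d2 on the log2 CPM scale, with no test. Over all libraries Arntl spanned -0.26 to 4.14 and that mean 4.55 to 6.29, so the difference mostly followed Arntl. The difference was -3.4 to -1.29 in heterozygotes and -2.44 to -1.14 in wild type at 3 months. At 6 months with regular activity it ran from -6.31 to -0.41 in heterozygotes and from -5.19 to -2.41 in wild type. With exercise it was -5.57 to -3.76 in heterozygotes and -5.09 to -3.34 in wild type. Every exercised library thus lay below every library of 3 months except heterozygote 5, whose -3.4 fell within the exercised wild-type range, and the regular-activity libraries at 6 months covered the span of both. Heterozygotes 1 and 3 of that set stood at -5.11 and -6.31, and heterozygotes 2, 4 and 5 at -1.64, -1.26 and -0.41. Y-linked Ddx3y was expressed in heterozygotes 1, 3 and 5 and Xist in 2 and 4, and the part of sex in these values was not tested. The hour of collection was not tested.

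Heterozygotes were compared with wild type at each age and activity, which asks what the Dsp allele together with Myh6-Cre does to these genes. At 6 months with regular activity 6 of the 7 repressor genes had lower values in heterozygotes and none was called, whereas Cry1 had a log2 fold change of 0.19 (SE 0.237, adjusted p = 0.899, edgeR's quasi-likelihood test). Per1 averaged 39.8 ± 17.2 CPM in heterozygotes and 62.1 ± 8.68 CPM in wild type, Per3 averaged 33.5 ± 17.8 and 58.9 ± 14.7 CPM, Cry2 averaged 22.2 ± 5.78 and 29.5 ± 4.8 CPM, and Nr1d2 averaged 105 ± 31.2 and 156 ± 21.2 CPM (SD, n = 5 each). The log2 fold changes were -0.64 (SE 0.261, adjusted p = 0.465), -0.81 (SE 0.288, adjusted p = 0.377), -0.41 (SE 0.148, adjusted p = 0.383) and -0.57 (SE 0.167, adjusted p = 0.254) in edgeR's quasi-likelihood test, and the ranges of both groups overlapped for each gene. These were the 4 members with an unadjusted p under 0.05, against 8.79% of all genes. In all, 6 of the 10 members were lower, with a median log2 fold change of -0.31 against 0 over all genes tested, and 0 of 10 were called, against 0.135% of all genes.

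The calls in this comparison depended on the test and the covariate. With limma-voom and quality weights, Per1, Per3, Cry2 and Nr1d2 were all called lower (adjusted p 0.0148 to 0.0427), among 483 genes in place of 21. With the Arntl level of each library (log2 CPM) as a covariate, added after seeing the data, Per3 (log2 fold change -0.89) and Nr1d2 (log2 fold change -0.59) were called, both with an adjusted p of 0.034 in edgeR's quasi-likelihood test. The summed fibroblast markers were 335 to 491 CPM in heterozygotes and 175 to 202 CPM in wild type, with 8 of 8 higher, and the macrophage markers 46.6 to 90.8 and 14.7 to 28.7 CPM, with 7 of 7 higher. Endothelial markers summed to 384 to 798 CPM in heterozygotes and 344 to 519 CPM in wild type, with 8 of 8 higher, and pericyte and smooth muscle markers to 463 to 837 and 345 to 682 CPM, with 5 of 5 higher. Erythroid markers summed to 4.82 to 120 CPM in heterozygotes and 6.36 to 201 CPM in wild type, with 0 of 4 higher, and adipocyte markers to 0.418 to 2.16 and 0.597 to 4.98 CPM, with 0 of the 3 tested higher. Ventricular myocyte markers summed to 79000 to 102000 CPM in heterozygotes and 87900 to 109000 CPM in wild type. Of these 12, 3 were higher (median log2 fold change -0.14), as were 3 of 4 atrial myocyte markers. None of the markers of any list was called, against 0.135% of all genes. None of the fibroblast and macrophage markers was at 0 in all libraries, and the part of cell types in the result was not tested.

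Immediate early genes, to which Per1 is often added because it responds to stimuli within the hour, leaned the same way. Of 16 listed, 13 were lower in heterozygotes at 6 months with regular activity (median log2 fold change -0.41, against 0 over all genes). None of the 16 was called, against 0.135% of all genes. Of 10 glucocorticoid-induced genes, another input to Per1, 2 were lower and 8 higher (median 0.18). Again none was called, against the same 0.135% of all genes.

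At 3 months and in the exercised groups the clock genes of heterozygotes and wild type were not distinguished. Cry1, the repressor that closes the loop late in the cycle, was 5.42, 5.1, 9.13, 2.96 and 8.42 CPM in heterozygotes at 3 months, against 11.8, 13.3, 7.33, 10.3 and 8.26 CPM in wild type. The groups overlapped, and the log2 fold change of -0.72 (SE 0.24) had an adjusted p of 0.228 in edgeR's quasi-likelihood test, or -0.90 (adjusted p = 0.1) without the library labelled heterozygote 3. It was the 1 member with an unadjusted p under 0.05 at 3 months, where 11% of all genes had one, and 0 of 10 members were called, against 0.192% of genes. In the exercised groups no member had an unadjusted p under 0.05, and 0 of 10 were called, against 0.404% of genes (lowest adjusted p among members 0.61).

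**Figure D4:**
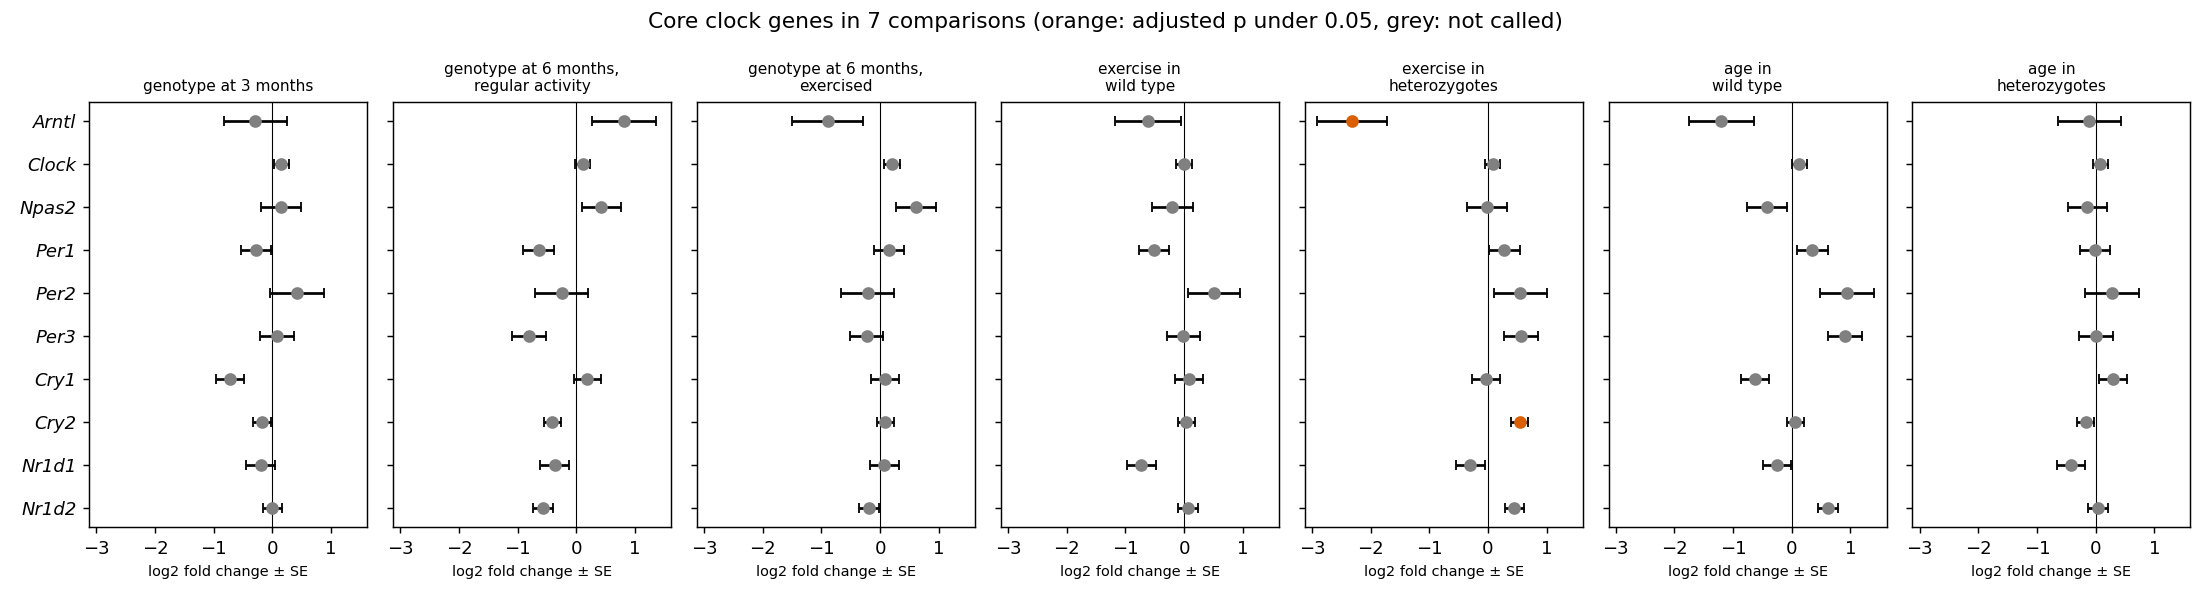
Log2 fold change with its SE (horizontal axes) of each clock gene in 7 comparisons from 1 fit of 30 libraries, as heterozygotes over wild type, exercised over regular activity, or 6 over 3 months. Orange marks the 2 calls, Arntl lower (-2.31) and Cry2 higher (0.54) in exercised heterozygotes, and grey marks an adjusted p of 0.05 or more.

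Exercise was set against regular activity in each genotype at 6 months, and its 2 calls among these genes were in heterozygotes. Arntl fell to 1.79 ± 0.667 CPM in exercised heterozygotes, against 8.95 ± 7.52 CPM in regular-activity heterozygotes (SD, n = 5 each), a log2 fold change of -2.31 (SE 0.597, adjusted p = 0.015, edgeR's quasi-likelihood test), or 4.96-fold lower. The groups overlapped, because regular-activity heterozygotes 1 and 3 had 1.44 and 0.721 CPM, and the other 3 libraries had 11.4 to 17.5 CPM. Cry2 rose to 31.9, 32.6, 31.3, 31.9 and 33.8 CPM in exercised heterozygotes, against 28.3, 22.2, 27.4, 18.6 and 14.7 CPM in regular-activity heterozygotes, with no overlap (log2 fold change 0.54, SE 0.148, adjusted p = 0.0192). Genes called in either direction made up 8.82% of those tested, 3.48% lower and 5.34% higher, and 9.12% of genes did not overlap between these groups, so 2 calls among 10 genes is not far above the share of all genes. Nr1d2 had a log2 fold change of 0.45 (SE 0.167, adjusted p = 0.09).

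Both calls depended on the libraries or the test. Arntl was called in 10 of 10 fits that left out 1 library (highest adjusted p 0.0447, without regular-activity heterozygote 4), but not in a fit of its own 2 groups (adjusted p = 0.107) or with limma-voom (adjusted p = 0.13). Cry2 was lost in 5 of 10 such fits (without regular-activity heterozygotes 4 or 5, or exercised heterozygotes 1, 2 or 5; adjusted p up to 0.0989) and with the Arntl level as a covariate (log2 fold change 0.37, adjusted p = 0.143). Beside these changes, 10 of 12 ventricular myocyte markers were higher in the exercised heterozygotes. Of the 12, 3 were called, against 8.82% of all genes. None of 8 endothelial, 7 macrophage, 5 pericyte and smooth muscle, 4 erythroid and 3 tested adipocyte markers was higher. Of 8 fibroblast and 4 atrial myocyte markers, 1 and 3 were higher. Outside the ventricular myocyte list no marker was called. The fibroblast markers summed to 98.2 to 729 CPM in exercised heterozygotes and 335 to 491 CPM in regular-activity heterozygotes, and the part of other cell types was not tested.

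In wild type no member was called with exercise. Nr1d1 came nearest, with 59.2, 50, 58.3, 37.1 and 69.7 CPM in exercised wild type, against 116, 89, 98.7, 76 and 76.9 CPM in regular-activity wild type. The groups did not overlap, as for 10.6% of all genes, and the log2 fold change was -0.73 (SE 0.244, adjusted p = 0.0545, edgeR's quasi-likelihood test). Thra, whose exons overlap those of Nr1d1, had an adjusted p of 0.0888 in the same comparison, with a log2 fold change of -0.34. Arntl averaged 3.37 ± 1.62 CPM in exercised and 5.12 ± 2.53 CPM in regular-activity wild type (SD, n = 5 each) and the groups overlapped. In all, 0 of 10 members were called, against 9.69% of genes. Of the 12 ventricular myocyte markers, 9 were higher with exercise and 3 were called. No marker of another cell type was called, and the part of cell types was not tested. Nr1d1 was called in 4 of the alternatives (adjusted p = 0.00165 with limma-voom), and also without exercised wild type 5.

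The effect of exercise was not shown to differ between genotypes for any member. The interaction of genotype with exercise was -1.70 for Arntl (SE 0.815, adjusted p = 0.999), 0.79 for Per1 (SE 0.37, adjusted p = 0.995) and 0.49 for Cry2 (SE 0.209, adjusted p = 0.974) on the log2 scale. These were the members with an unadjusted p under 0.05, and 0 of 10 were called, against 0.0128% of genes. The exercise comparisons share no library with each other, but each shares its regular-activity libraries with the genotype and age comparisons.

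Per1 is set beside the immediate early genes again here. With exercise all 16 of that list were lower in both genotypes, with 9 called in each, against 8.82% of all genes called in heterozygotes and 9.69% in wild type. Junb, the JUN family transcription factor gene, had the smallest p, at 46.1 to 72.9 CPM in exercised heterozygotes and 137 to 210 CPM in regular-activity heterozygotes, and its log2 fold change was -1.55 in heterozygotes (adjusted p = 1.87e-06) and -1.62 in wild type (adjusted p = 1.45e-06). Per1 did not follow in heterozygotes, where it averaged 48.4 ± 7.72 CPM with exercise and 39.8 ± 17.2 CPM without. In wild type it averaged 43.7 ± 12.5 CPM with exercise and 62.1 ± 8.68 CPM without, and neither difference was called.

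Age was examined by setting 6 months against 3 months with regular activity in each genotype. In wild type, Per3 was 40.2 to 77.6 CPM at 6 months and 26.1 to 36.6 CPM at 3 months, with no overlap between the groups, as for 3.88% of all genes. Its log2 fold change was 0.90 (SE 0.29, adjusted p = 0.15), and that of Nr1d2 was 0.62 (SE 0.168, adjusted p = 0.0693, edgeR's quasi-likelihood test). Arntl averaged 5.12 ± 2.53 CPM at 6 months and 11.8 ± 3.34 CPM at 3 months (log2 fold change -1.20, SE 0.551, adjusted p = 0.365), and Cry1 averaged 6.63 ± 1.41 and 10.2 ± 2.46 CPM (log2 fold change -0.62, SE 0.238, adjusted p = 0.245; SD, n = 5 each). Thus 4 members had an unadjusted p under 0.05 and 0 of 10 were called, against 0.86% of genes. In a fit of these 2 groups alone, and with the DESeq2 Wald test, Per3 and Nr1d2 were called higher, and without wild type 1 at 3 months Nr1d2 was called.

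In heterozygotes no member had an unadjusted p under 0.05 with age and 0 of 10 were called, against 3.43% of genes (lowest adjusted p among members 0.353). The interaction of genotype with age was -0.90 for Per3 (SE 0.408, adjusted p = 0.601), 0.91 for Cry1 (SE 0.337, adjusted p = 0.524) and -0.58 for Nr1d2 (SE 0.236, adjusted p = 0.558). No gene at all was called for that interaction in edgeR's quasi-likelihood test, although 8.04% of genes and 3 of the 10 members had an unadjusted p under 0.05. For the same interaction, limma-voom called 0 genes and the DESeq2 Wald test 23.

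Other transcription factors of the clock were followed through a list of 11 genes. At 6 months with regular activity, 10 of 11 were lower in heterozygotes than in wild type. Their median log2 fold change was -0.50 against 0 over all genes, and none was called, against 0.135% of all genes. Bhlhe40, an E-box repressor, had the smallest p (log2 fold change -0.50, SE 0.168, adjusted p = 0.331). It was 89.9, 64.4, 75.1, 46.2 and 61.1 CPM in heterozygotes, against 92.1, 99.4, 109, 81.4 and 94.6 CPM in wild type, so only heterozygote 1 reached the wild-type range. Tef (-0.61), Dbp (-1.16) and Bhlhe41 (-0.53) followed with adjusted p of 0.478, 0.507 and 0.53. With exercise in heterozygotes, 8 of 11 were higher and 1 was called, the activator of ROR elements Rora, at 29.7 to 39 CPM in exercised heterozygotes and 20.5 to 28.1 CPM in regular-activity heterozygotes (log2 fold change 0.47, SE 0.124, adjusted p = 0.0147), a share close to the 8.82% of all genes. In exercised against regular-activity wild type, 7 of 11 were lower and none was called, against 9.69% of all genes. With age in wild type, 9 of 11 were higher and none was called, against 0.86% of all genes. Ciart, a repressor of the CLOCK dimer, had a log2 fold change of 2.28 with age in wild type (adjusted p = 0.104, edgeR's quasi-likelihood test).

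Some genes that act on clock proteins were called in the exercise comparisons. Of 16 kinases, ubiquitin ligases, deubiquitinases and cofactors, 5 rose in exercised heterozygotes and 4 in exercised wild type, and none fell, while 8.82% and 9.69% of all genes were called in these comparisons. In each, 10 of the 16 had higher and 6 lower values, with a median log2 fold change of 0.10 in heterozygotes and 0.09 in wild type, against 0 and 0.01 over all genes. Those called in both were Gsk3b, Ncor1, Prkaa1 and Prkaa2. Gsk3b, a kinase of clock proteins, had log2 fold changes of 0.64 in heterozygotes and 0.55 in wild type, Ncor1, the corepressor that NR1D1 and NR1D2 recruit, had 0.37 and 0.35, and the AMP-activated kinase genes Prkaa1 (0.45 and 0.40) and Prkaa2 (0.58 and 0.38) rose likewise (adjusted p up to 0.0225). The fifth in heterozygotes was Usp2, a deubiquitinase whose gene is clock-controlled (log2 fold change 0.60, SE 0.163, adjusted p = 0.0173), named after its values were seen. None of the 16 was called in any genotype comparison, where 0.135% to 0.404% of all genes were called. Nor was any called with age (0.86% of genes in wild type, 3.43% in heterozygotes) or for its slope on Arntl (0.0513%). Usp2 came nearest for that slope (-0.19, adjusted p = 0.0604, edgeR's quasi-likelihood test). Among 7 clock output genes of the heart, Gsk3b, which is on both lists, and Wee1 were called higher in exercised heterozygotes, where 8.82% of all genes were called (for Wee1, log2 fold change 0.77, SE 0.232, adjusted p = 0.0326). Wee1 was also the one of these 7 called against Arntl.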

How the data were processed

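The 30 mouse cardiac myocyte libraries were made from ribosome-depleted total RNA as paired-end libraries that keep strand, per the labels' protocols. The submitters' processing notes list Trim Galore, HISAT2 and featureCounts with build mm10. Versions, annotation and strand setting are not given in the sources used here. The deposited table, made by the authors, gives whole raw counts for 52573 entries, which are 52550 genes and 23 spike-in entries that were left out. For 27 genes, symbols that had become dates were restored from the gene ID. Groups came from the sample titles.

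Genes were filtered with filterByExpr, which left 15587, and scaled with TMM factors. CPM values are counts per 10⁶ of the scaled library size, and a prior count of 2 was added before log2. All groups were fitted together in edgeR 4.0.16 (R 4.3.3, limma 3.58.1) with the robust quasi-likelihood test and 24 residual degrees of freedom. Benjamini-Hochberg adjustment ran over all tested genes, and a call needed an adjusted p under 0.05. SE is the standard error of the log2 value. Slopes used the same test with the within-group deviation of Arntl added as a term. Correlations used log2 CPM and 100000 two-sided permutations, adjusted over 20 relations. Positions and exon lengths came from GENCODE M21, promoters from RefSeq.

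All 10 members are named throughout, with log2 fold changes where the unadjusted p was under 0.05. Of each list the 4 genes of smallest p in a comparison could be named, and beside them the 5 genes most like and the 5 most opposite to Arntl. Other genes were chosen after their values were seen. The members and lists were chosen with earlier results of these data known. Alternatives were DESeq2 size factors, no filter, the replicate number as a block, leaving out mitochondrial and the 10 most abundant genes, each comparison's own groups, limma-voom, and the DESeq2 Wald test (DESeq2 1.42.0). Single libraries, and the 3 libraries with Xist and Ddx3y, were also left out. Alternatives chosen after seeing the data were the Arntl level of each library as a covariate and the slope without 2 libraries. The scripts were tested on simulated data. Depth was 11.23 to 23.71 (in units of 10⁶ counts), and Arntl had as few as 13 counts in a library.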

Additional observations from a re-analysis of the deposited data

Results flagged for a closer look

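Per1 in exercised wild type 5 was 65.8 CPM, against 35.4 to 41.4 CPM in the other 4 libraries of that group. Its gap to the nearest library was 0.746 of the group's range, above the 95% critical value of 0.71 for 5 samples. It was the only value marked in this way among 66 groups of 5 libraries (the members and Dsp in the 6 groups), where chance alone would mark about 1 in 20.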

How the results depend on the processing

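Over the alternatives and left-out libraries, 99 values of the 10 members gave 2270 recomputed values, of which 2073 kept their direction and their side of the threshold, 54 lost a call, 26 gained one and 117 changed sign. Of those 117, from 35 values, none was called before or after. The largest of these 35 in absolute size was the slope of Per2 on Arntl, -0.50 in the main test. With 0 members called in the main test of exercise in wild type, 1 (Nr1d1, lower) was called under the fit of the comparison's own groups, limma-voom, the DESeq2 Wald test and the replicate block. For exercise in heterozygotes (2 called), the fit of own groups called 1 (Cry2), limma-voom 4 (Per2, Per3, Cry2 and Nr1d2, higher) and the Arntl level as a covariate 0. For age in wild type (0 called), own groups and the DESeq2 Wald test called 2 (Per3 and Nr1d2). For genotype at 6 months with regular activity (0 called), limma-voom called 4 and that covariate 2. For the slope on Arntl (3 called), limma-voom and the DESeq2 Wald test called 4 (Per2 in addition), the replicate block and the fit without the 3 libraries with Xist and Ddx3y called 1 (Per3), and the fits of the 3-month set alone, the exercised set alone and all libraries without heterozygotes 1 and 3 at 6 months called 0. Leaving out single libraries gave 1 to 4 called members for the slope, 1 to 3 for exercise in heterozygotes, 0 to 1 for exercise in wild type and for age in wild type, and 0 for the 3 genotype comparisons, age in heterozygotes and both interactions. Slopes that changed sign were that of Cry2 in the 3-month set alone (0.15), and those of Npas2 (-0.05), Per1 (0.33), Per2 (0.21), Cry1 (0.15) and Nr1d1 (-0.07) in the exercised set alone, none of them called. At 6 months with regular activity, the correlations of Arntl with Per1 and Per3 passed with DESeq2 size factors (r -0.74 and -0.76, both with a permutation p adjusted to 0.0415) and without mitochondrial and the most abundant genes (r -0.73 and -0.75, permutation p adjusted to 0.0485 and 0.0484). The cause of these changes was not tested, and single sets also hold fewer libraries. At most 2 of 5 same-numbered pairs in a comparison deviated together with a correlation over 0.1. The highest was 0.324, for replicate 2 in genotype at 6 months with regular activity. These correlations alone cannot show whether replicate numbers pair the samples. With the number as a block, 1339 in place of 1511 genes were called for exercise in wild type, and 1193 in place of 1375 in heterozygotes. For genotype, 1 in place of 30 was called at 3 months and 11 in place of 21 at 6 months. Across these settings, single libraries apart, the number of all genes called ran from 0 to 145 for genotype at 3 months (30 in the main test), 4 to 483 at 6 months (21), 13 to 200 with exercise (63), 642 to 2803 for exercise in wild type (1511), 816 to 2877 in heterozygotes (1375), 32 to 328 for age in wild type (134), 304 to 1418 in heterozygotes (534), 0 to 8 and 0 to 23 for the interactions with exercise (2) and age (0), and 0 to 24 for the slope (8). The highest of these counts came from limma-voom or the DESeq2 Wald test in each comparison. Depth limits Arntl and Npas2 most, with as few as 13 and 20 counts in a library.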
